A study of Mus musculus with 67 samples.

Results

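The Polycomb group genes described here are 10 rows of a deposited expression table of 26414 genes, found by their symbols: *Suz12*, *Ezh2* and *Eed* of Polycomb repressive complex 2 (PRC2), *Rnf2*, *Ring1*, *Cbx2*, *Pcgf1* and *Phc1* of complex 1 (PRC1), and *Scml2* and *Scmh1*, which encode proteins with MBT and SAM domains. *Scml2* and *Scmh1* were chosen because their values fell after the 2-cell stage and in light-exposed 2-cell embryos, so these falls are described and were not tested. The other 8 members were listed by function.

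Polycomb proteins keep developmental genes silent by marking their chromatin. PRC2 places methyl groups on lysine 27 of histone H3 (H3K27me3) through EZH2, which needs EED and SUZ12 to work, and PRC1 ubiquitinates histone H2A through RNF2 or RING1. In the oocyte and the early embryo these proteins and their RNA are first supplied by the mother, and maternal H3K27me3 silences the maternal copy of a small group of imprinted genes.

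The libraries were made by SMART-seq2, a method that copies the whole messenger RNA of a single cell, from C57BL/6 mouse embryos of in vitro fertilization. The females were 6 weeks and the males 10 weeks old. Light embryos were exposed as 2-cell embryos to 5000 lx, lasting 6 h, and afterwards cultured in the dark, while control embryos were never lit (0 lx). Each label carries an embryo number, and the methods describe single cells picked from dissociated embryos. Control embryos gave 7 libraries of 2-cell, 6 of 4-cell, 4 of 8-cell, 13 of morula and 3 of blastocyst embryos, and light embryos gave 6, 8, 8, 6 and 6.

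Depth lay between 836011 and 8551674 reads per library, of which 54.0% to 89.3% fell on CT010467.1 and Gm42418. A deposited value is a gene's read count scaled by 1 factor per library and not by gene length. The summed value of 10 oocyte RNAs, such as *Gdf9* and *Zp3*, was highest at the 2-cell stage, and the summed value of 9 trophectoderm genes was highest in blastocysts, with medians of 3000 in the control and 4032 in the light group. The reads on 4 Y-linked genes were uneven between groups: more than 10 reads were found in 8 of 8 light 4-cell and 6 of 6 light blastocyst libraries, but in 0 of 4 control 8-cell, 0 of 13 control morula and 0 of 3 control blastocyst libraries. How many embryos the libraries of a group came from was not tested, and every p-value below takes each library as 1 replicate.

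The members lie on several chromosomes (GRCm38, GENCODE M21). *Suz12* is at chr11:79993106-80034123 and *Cbx2* at chr11:119022962-119031270, both on the plus strand. *Ezh2* (chr6:47530139-47595341) and *Phc1* (chr6:122317731-122340561) are on the minus strand and *Pcgf1* (chr6:83077869-83080855) on the plus strand of chromosome 6. *Eed* is at chr7:89954654-89980983, *Rnf2* at chr1:151458004-151500955 and *Ring1* at chr17:34020792-34024680, all on the minus strand. *Scml2* is X-linked (chrX:161117193-161258213, plus strand) and *Scmh1* is at chr4:120405281-120530186 on the plus strand. All 10 are protein-coding. The loci of *Rnf2*, *Ezh2*, *Eed* and *Suz12* overlap other annotated genes, some on the opposite strand, and whether the counting used strand is not given in the sources used here.

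The 250 bases before the start site are shown for *Suz12* and *Scml2*, the pair of members whose light and control 2-cell libraries did not overlap, and for *Ezh2*, the catalytic partner of SUZ12 (RefSeq, GRCm38.p6). Capitals mark CCAAT, an E2F-like word (TTTCCCGC) and the GC-box word GGGCGG, searched on both strands. The windows are chr11:79992856-79993105 (plus strand), chrX:161162500-161162749 (plus strand) and chr6:47595031-47595280 (minus strand), each written 5′ to 3′ in the direction of the gene. The RefSeq start of *Scml2* lies within the GENCODE gene and not at its first base.
Suz12: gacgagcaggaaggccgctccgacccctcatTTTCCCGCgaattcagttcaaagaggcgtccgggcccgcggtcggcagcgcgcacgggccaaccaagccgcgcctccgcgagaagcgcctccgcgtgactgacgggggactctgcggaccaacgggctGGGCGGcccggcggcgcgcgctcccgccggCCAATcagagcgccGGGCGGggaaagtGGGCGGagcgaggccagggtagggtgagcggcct
Ezh2: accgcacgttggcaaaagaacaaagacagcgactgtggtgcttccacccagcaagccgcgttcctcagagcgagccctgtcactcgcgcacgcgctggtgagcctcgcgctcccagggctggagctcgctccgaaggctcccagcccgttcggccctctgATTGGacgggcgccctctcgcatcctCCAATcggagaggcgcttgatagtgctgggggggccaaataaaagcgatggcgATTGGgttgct
Scml2: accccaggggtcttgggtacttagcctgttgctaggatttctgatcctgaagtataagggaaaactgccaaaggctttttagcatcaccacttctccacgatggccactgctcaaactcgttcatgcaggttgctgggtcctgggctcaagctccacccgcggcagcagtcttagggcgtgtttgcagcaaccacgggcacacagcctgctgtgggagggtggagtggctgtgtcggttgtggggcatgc
The *Suz12* window held 37 CpG dinucleotides, 1 TTTCCCGC, 1 CCAAT and 3 GGGCGG. The *Ezh2* window held 23 CpG and 3 CCAAT, and the *Scml2* window held 7 CpG and none of the 3 words. In windows that also reach 50 bases into the gene, TTTCCCGC was found in 1.07%, CCAAT in 37.4% and GGGCGG in 35.7% of 32851 RefSeq promoters. Such windows were found for 8 of the 10 members. Another E2F-like word, TTTGGCGC, was found in 0.514% of these promoters. In *Ezh2* it began at base 4 of the gene, past the bases shown. *Scmh1*, the member with 2 windows, had 54 CpG in 1 of them and 0 in the other.

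At the 2-cell stage *Suz12* and *Rnf2* were the most abundant members of the control group after division by exon length. *Cbx2*, *Scml2* and *Pcgf1* came next, with means close to each other. The mean value per kilobase was 335 for *Suz12*, 135 for *Rnf2*, 71.8 for *Cbx2*, 71.4 for *Scml2* and 65.8 for *Pcgf1*. It was 29.7 for *Ezh2*, 26.5 for *Eed*, 26.2 for *Scmh1* and 11.9 for *Phc1*, and only 0.383 for *Ring1*, the paralog of *Rnf2*. In light 2-cell embryos the per-kilobase mean of *Rnf2* (140) was above that of *Suz12* (110), and *Ezh2* (37.0) and *Eed* (45.8) were closer to *Suz12* than in control embryos. Group means were highest at the 2-cell stage for 7 of 10 members in the control group and for 9 of 10 in the light group. The exceptions were *Eed* and *Pcgf1*, highest at the control 4-cell stage, and *Ring1*, highest in control morulae and light 4-cell embryos. Both counts include *Scml2* and *Scmh1*, whose fall after the 2-cell stage was the reason for their choice. The share of all genes highest at the 2-cell stage was not counted. From the 2-cell to the 4-cell stage the median log2 fold change of all genes was -0.72 in control and -0.56 in light embryos.

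**Figure D1:**
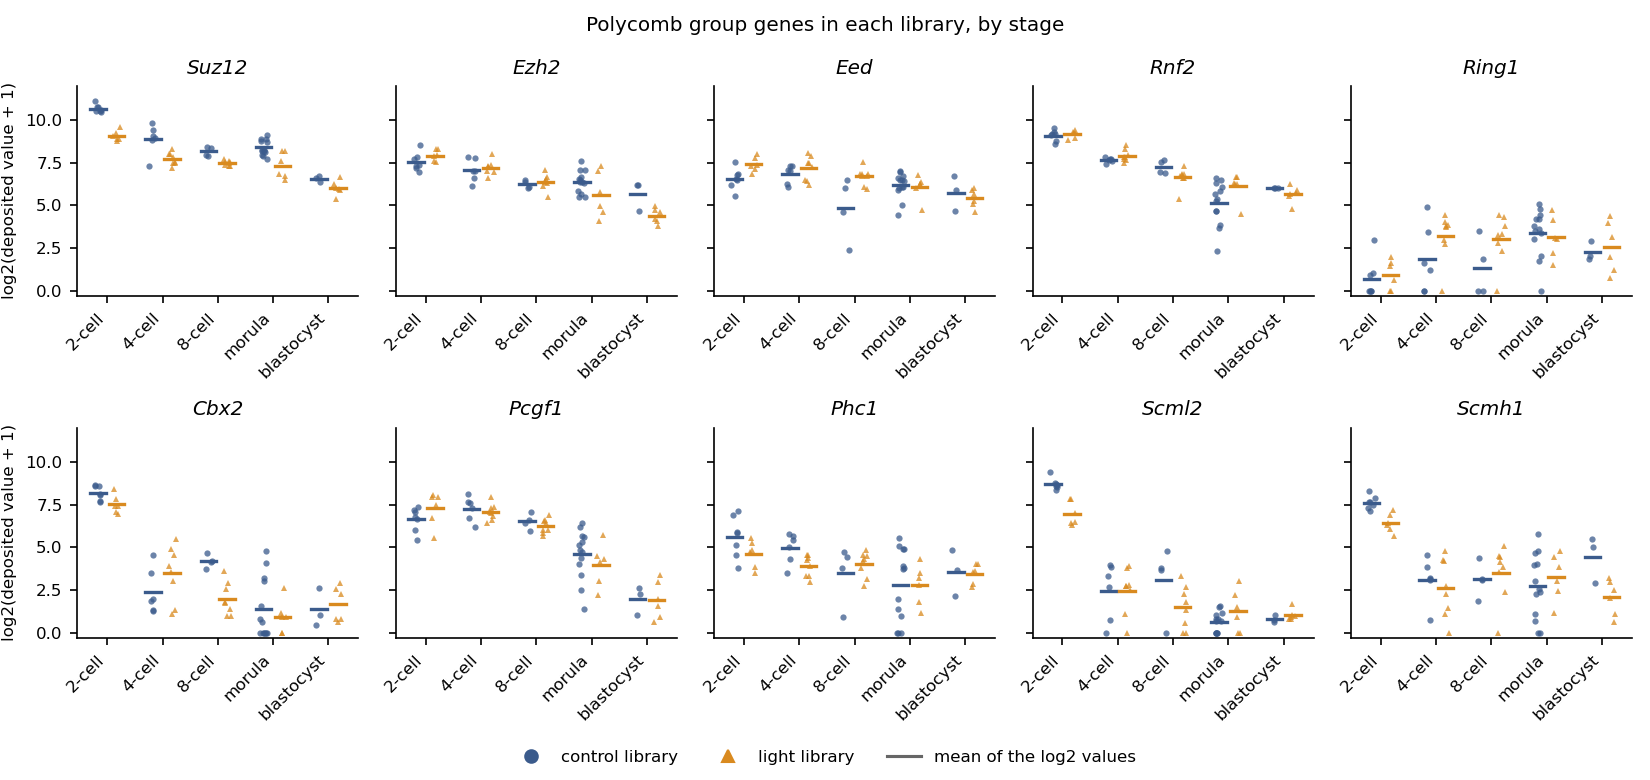
Each panel plots 1 Polycomb group gene: log2(deposited value + 1) of every library on the vertical axis against the 5 stages, with blue circles for control, orange triangles for light and a line at the mean of the log2 values. *Suz12*, *Scml2* and *Scmh1* start lower in light 2-cell embryos, *Scml2*, *Scmh1* and *Cbx2* drop steeply by the 4-cell stage, and *Ring1* stays near 0 at the 2-cell stage.

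The first comparison asked how the members differed between light and control embryos right after exposure, at the 2-cell stage. *Suz12*, which holds PRC2 together, was the member called lower of the 8 tested, while its partners *Ezh2* and *Eed* were not called. Its values in control embryos were 1395 at the lowest, 1564 at the median and 2239 at the highest, and in light embryos 431, 510 and 757. All 6 light libraries were therefore below all 7 control libraries. Means were 1654.5 ± 287 (SD, n = 7) and 546 ± 120 (SD, n = 6), and the log2 fold change was -1.61 (SE 0.22), a 3.05-fold fall with an adjusted p of 2.32e-05 in limma. Here and below, called means a Benjamini-Hochberg adjusted p under 0.05 over all genes tested together with a change of at least 2-fold on the log2(value + 1) scale. Of all 18510 genes tested 10.5% were called, 4.96% lower and 5.53% higher, and for 4.15% the groups did not overlap. The log2 fold change of *Suz12* stayed between -1.71 and -1.39 (adjusted p of 1.01e-11 to 0.000189) when each library was left out or the scaling, filter or tool was changed. In a limma fit with the replicate number as a block it was -1.80 (adjusted p = 0.105), and that fit called 0 of 18510 genes, with 4446 at an unadjusted p under 0.05.

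The summed value of the 10 oocyte RNAs moved with this difference. It lay between 3762 and 8882 in control and between 1358 and 3993 in light 2-cell libraries, and none of the 10 was at 0 in all libraries of either group. The summed value of 5 cumulus cell genes lay between 8.33 and 22.2 in control and between 3.34 and 63.8 in light 2-cell libraries, and that of 4 sperm genes reached at most 10.4 and 3.34. The ratio of *Gm42418* to *CT010467.1* reads, the pair that took most reads, moved with the groups as well. It lay between 2.34 and 4.03 in control and between 1.58 and 1.77 in light 2-cell libraries, and the groups were also apart at the 8-cell stage (2.01 to 2.34 and 1.52 to 1.71) and in morulae (2.34 to 4.14 and 1.49 to 1.67). The part of the oocyte RNAs and of this ratio in the differences of *Suz12* was not tested. The values are scaled within each library, so they give the level of a gene relative to the other RNAs of that library. The number of transcripts per cell is not known, since no spike-in values were used here.

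The ratio of *Suz12* to its partners does not depend on the size factor of the library. The *Suz12* to *Ezh2* ratio of values had a median of 8.36 (6.13 to 13.9) in control and 2.43 (1.53 to 3.00) in light 2-cell libraries. The *Suz12* to *Eed* ratio was 15.9 (12.0 to 37.8) in control and 3.41 (1.83 to 4.61) in light libraries. The *Suz12* to *Rnf2* ratio was 2.93 (2.37 to 3.84) in control and 0.841 (0.761 to 1.34) in light libraries. None of these ranges overlapped between the groups, but all 3 ratios share *Suz12*, whose own values were apart, so they are no separate test. The share of other gene pairs with ratios apart was not counted. The *Eed* to *Ezh2* ratio had a median of 0.511 (0.366 to 0.656) in control and 0.699 (0.453 to 1.22) in light 2-cell libraries, with overlap. At the 4-cell stage the *Suz12* to *Ezh2* medians were 3.45 in control and 1.55 in light libraries, and the ranges overlapped. In blastocysts the order was the opposite, with medians of 1.47 in control and 3.25 in light libraries, again with overlap.

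**Figure D2:**
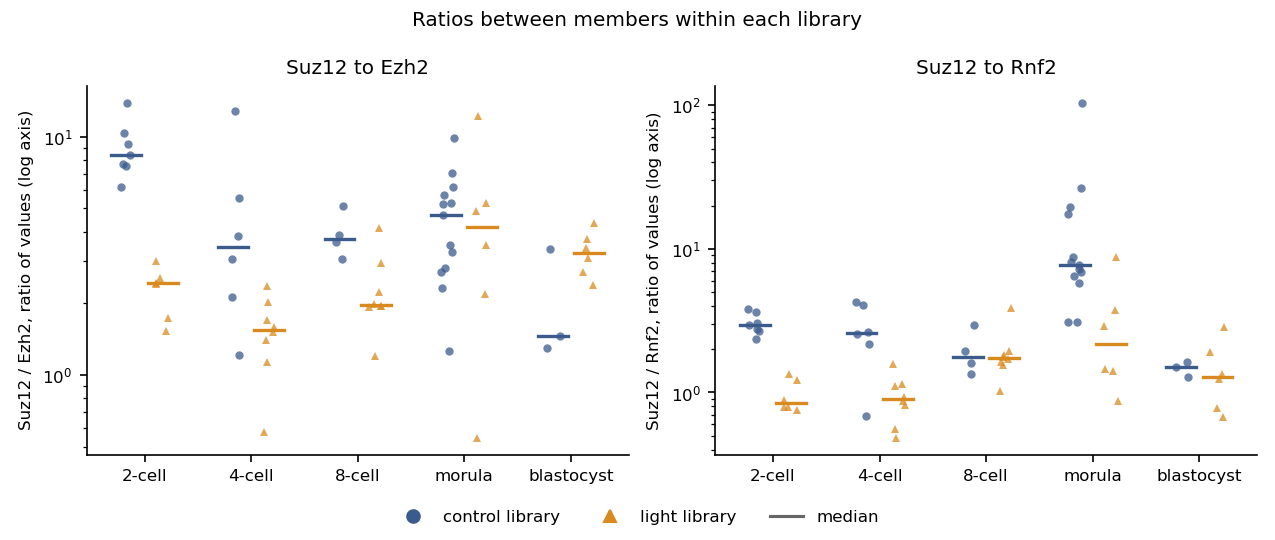
The vertical log axes plot the ratio of *Suz12* to *Ezh2* (left) and to *Rnf2* (right) in each library across the 5 stages, with control as blue circles, light as orange triangles and a line at the median. At the 2-cell stage all light libraries lie below all control libraries in both panels, with medians of 2.43 against 8.36 and of 0.841 against 2.93.

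The other PRC2 core members did not pass the test at the 2-cell stage. *Ezh2*, the methyltransferase, was 199 ± 81.5 (SD, n = 7) in control and 247 ± 56.7 (SD, n = 6) in light embryos, a log2 fold change of 0.37 (SE 0.31, limma adjusted p = 0.484). *Eed*, which binds H3K27me3 and stimulates the enzyme, was 102 ± 44.2 in control and 175 ± 54.9 in light embryos, with a log2 fold change of 0.84 (SE 0.36, limma adjusted p = 0.129). Both had higher means in light embryos, and the ranges of the groups overlapped.

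Neither catalytic subunit of PRC1 passed the test. *Rnf2* had nearly the same mean in both groups, 556 ± 119 (SD, n = 7) in control and 576 ± 90.1 (SD, n = 6) in light embryos (log2 fold change 0.06, SE 0.24). *Ring1* was at the limit of detection, with 0 reads in 4 of 7 control and 2 of 6 light libraries and at most 6.74 in value. Among the other PRC1 subunits, *Cbx2*, a reader of H3K27me3, had values of 203 to 398 in control and 122 to 342 in light embryos (log2 fold change -0.69, SE 0.30, limma adjusted p = 0.147). *Phc1*, a SAM-domain subunit, had a log2 fold change of -1.004 (SE 0.56) and *Pcgf1*, the defining subunit of variant complex PRC1.1, of 0.65 (SE 0.41). These groups overlapped in all cases. Over the 8 members tested the median log2 fold change was 0.15, beside 0.00 over all genes.

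*Scml2* and *Scmh1* were chosen by this contrast, so their values are given as a description. *Scml2*, a Polycomb-associated protein known from germ cells, had values of 331 at the lowest, 404 at the median and 695 at the highest in control 2-cell embryos and 77.7, 108 and 228 in light ones. No light library reached the lowest control library. *Scmh1* had values of 138, 199 and 311 in control and 49.3, 82.5 and 148 in light embryos, and 1 light library (147.7) lay above the lowest control library. On the log2(value + 1) scale the differences were -1.75 (SE 0.31) for *Scml2* and -1.20 (SE 0.34) for *Scmh1*. Over the alternatives they ranged from -1.92 to -1.61 and from -1.36 to -1.04, without the fit with the replicate block.

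**Figure D3:**
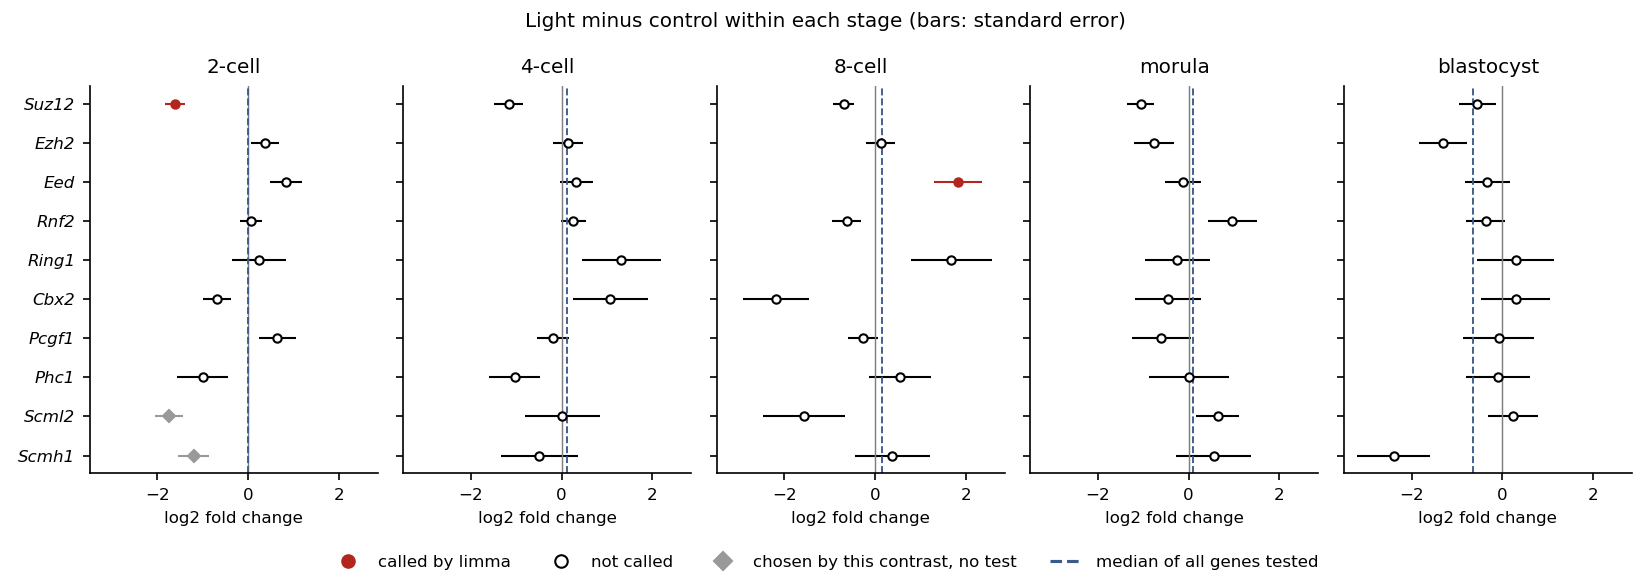
The horizontal axis gives the log2 fold change of light minus control with its standard error for the 10 members at each stage; filled red points were called by limma, open points were not, and grey diamonds mark members chosen by the contrast. *Suz12* is left of 0 at every stage (-1.61 to -0.54), though in blastocysts it ranged from -0.67 to 0.22 over the alternatives, and it is called at the 2-cell stage; *Eed* is called in 8-cell embryos (1.83).

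At the 4-cell stage 0 of 10 members were called by limma, beside 1.45% of 14995 genes (1.12% higher, 0.333% lower). At an unadjusted p under 0.05 was 1 member, beside 2624 of all genes. That member was *Suz12*, with values of 157, 516 and 907 (lowest, median, highest) in control and 148, 208 and 310 in light embryos. The groups overlapped through 1 control library (157), which was far below the other 5 (456 to 907). Its log2 fold change was -1.17 (SE 0.32, limma adjusted p = 0.0615). Without control library 3, the low one, it was -1.49 (adjusted p = 0.00234), and edgeR and DESeq2 each called it with all libraries; over the alternatives the adjusted p ranged from 0.00234 to 0.124. *Scml2* was down to 7.17 ± 6.26 (SD, n = 6) in control and 6.20 ± 4.91 (SD, n = 8) in light embryos, and *Scmh1* to 10.0 ± 7.24 and 9.42 ± 10.1. The limma adjusted p were 0.995 and 0.811.

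At the 8-cell stage *Eed* was called higher in light embryos and *Suz12* and *Cbx2* were lower in every light library than in any control library. *Eed* had values of 4.17, 23.2, 65.0 and 87.0 in the 4 control libraries and of 60.2, 109 and 189 (lowest, median, highest) in the 8 light ones. The groups overlapped, and the difference lay mainly in 2 low control libraries. Its log2 fold change was 1.83 (SE 0.53, limma adjusted p = 0.0299), beside 9.20% of 13844 genes called, 5.91% higher and 3.29% lower. The call was lost without control library 3 (adjusted p = 0.0775), control library 4 (log2 fold change 1.00, adjusted p = 0.142) or light library 6 (adjusted p = 0.0533), and in edgeR (adjusted p = 0.148) and DESeq2 (adjusted p = 0.111), with a range over the alternatives of 0.00807 to 0.148.

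*Suz12* at the 8-cell stage was 239, 251, 326 and 347 in control libraries and 156, 180 and 206 (lowest, median, highest) in light ones. The log2 fold change of -0.70 (SE 0.22) passed the p threshold (limma adjusted p = 0.0490) but was less than 2-fold. *Cbx2* was 12.0, 16.5, 17.5 and 24.4 in control libraries and 0.951, 2.41 and 11.0 (lowest, median, highest) in light ones, a log2 fold change of -2.19 (SE 0.72) that missed the threshold (limma adjusted p = 0.0555). These were the 2 of 10 members whose groups did not overlap, beside 5.61% of all genes. DESeq2 called *Cbx2* (adjusted p = 0.0147), as did limma without light library 9 (adjusted p = 0.0395; range over the alternatives 0.0147 to 0.127). The median light library had 6 reads on *Cbx2*. The summed oocyte RNAs lay between 133 and 252 in control and between 46.2 and 141 in light 8-cell libraries, and the sum of 11 genes of the transient 2-cell programme lay between 88.4 and 400 and between 2.85 and 118. Their part in the differences of *Suz12*, *Cbx2* and *Eed* was not tested.

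In morulae 0 of 10 members were called by limma, beside 1.18% of 15201 genes (0.355% higher, 0.822% lower), and edgeR and DESeq2 also called 0. At an unadjusted p under 0.05 was 1 member, beside 2335 of all genes. That member was again *Suz12*, with values of 211, 306 and 564 (lowest, median, highest) in 13 control and 87.4, 154 and 288 in 6 light libraries. The ranges overlapped, and the log2 fold change was -1.06 (SE 0.29, limma adjusted p = 0.0635). Without light library 1 it was called (-1.23, adjusted p = 0.0405).

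In blastocysts 0 of 10 members were called by limma, edgeR or DESeq2, beside 5.33% of 12728 genes in limma (0.354% higher, 4.98% lower). At an unadjusted p under 0.05 were 2 members, beside 2959 of all genes. *Scmh1* was 6.42, 31.7 and 43.1 in the 3 control libraries and 0.526, 3.904 and 8.20 (lowest, median, highest) in the 6 light ones, a log2 fold change of -2.40 (SE 0.81, limma adjusted p = 0.0824). The groups overlapped through control library 3, without which *Scmh1* was called (-3.18, adjusted p = 0.0387). *Ezh2* was 24.4, 71.0 and 73.1 in control and 12.8, 20.3 and 29.6 in light libraries (log2 fold change -1.30, SE 0.53, limma adjusted p = 0.144), and the same control library was the low one. The median of all genes was -0.64 on the deposited scale and between -0.09 and 0.02 under 3 other scalings, so the members' differences stand beside this shift. The summed value of 7 inner cell mass genes moved too, from 288 to 1207 in control down to 138 to 205 in light blastocysts, while that of 9 trophectoderm genes lay between 462 and 6232 in control and between 2717 and 6963 in light ones. Their part in these differences was not tested.

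The next comparison followed the members from the 2-cell to the 4-cell stage. The study places the main activation of the mouse embryo's own genes in this interval and examined the clearance of maternal RNA over it. In control embryos *Suz12*, *Rnf2* and *Cbx2* fell, 3 of the 8 members tested, and in all 3 the stages did not overlap. Over all 17704 genes 46.1% were called, 32.3% lower and 13.9% higher, and for 20.4% the stages did not overlap. With quantile normalization, which moved the median of all genes from -0.72 to -0.01, the calls went from 2454 higher and 5711 lower to 4175 and 4044, and the 3 members were still called. *Cbx2* fell most among them, from 306 ± 85.3 (SD, n = 7) to 6.84 ± 8.24 (SD, n = 6). Its log2 fold change was -5.80 (SE 0.55, limma adjusted p = 3.49e-08). *Suz12* fell by 1.77 on the log2 scale (SE 0.31, limma adjusted p = 8.11e-05) to 540 ± 250. *Rnf2* fell by 1.43 on the log2 scale (SE 0.27, limma adjusted p = 0.000207) to 203 ± 19.9. *Ezh2*, *Eed*, *Ring1*, *Pcgf1* and *Phc1* did not pass, with log2 fold changes between -0.67 and 1.16, beside a median of -0.72 over all genes. *Ring1* was called with quantile normalization (1.90, adjusted p = 0.0437).

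*Scml2* and *Scmh1*, chosen for their fall, went from 434 ± 119 to 7.17 ± 6.26 and from 203 ± 57.1 to 10.0 ± 7.24 in control embryos. The log2 differences were -6.31 (SE 0.60) and -4.53 (SE 0.54), so on this scale that of *Scml2* was close to that of *Cbx2*. In light embryos the same pair went from 139 ± 70.5 to 6.20 ± 4.91 and from 90.7 ± 35.9 to 9.42 ± 10.1, log2 differences of -4.54 (SE 0.58) and -3.82 (SE 0.65). The summed oocyte RNAs fell over the same interval, from medians of 5753 to 222 in control and 1916 to 207 in light embryos.

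In light embryos the same members, *Suz12*, *Rnf2* and *Cbx2*, fell from the 2-cell to the 4-cell stage, and *Ring1* rose. Of 17240 genes 36.5% were called, 29.0% lower and 7.44% higher, and for 13.0% the stages did not overlap. *Cbx2* went from 195 ± 80.5 (SD, n = 6) to 16.2 ± 14.7 (SD, n = 8), with a log2 fold change of -4.04 (SE 0.57, limma adjusted p = 2.29e-06). *Suz12* fell by 1.33 (SE 0.24) and *Rnf2* by 1.24 (SE 0.23) on the log2 scale, with limma adjusted p of 5.80e-05 and 9.41e-05. With median ratio scaling, which moved the median of all genes from -0.56 to -0.27, *Suz12* fell by 0.94 and *Rnf2* fell by 0.84, less than 2-fold (adjusted p of 0.00291 and 0.00337). *Ring1* had values of 0 to 2.89 before and 0 to 20.6 after the division, with medians of 1 and 18.5 reads (log2 fold change 2.24, SE 0.71, limma adjusted p = 0.0134), and the stages overlapped.

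**Figure D4:**
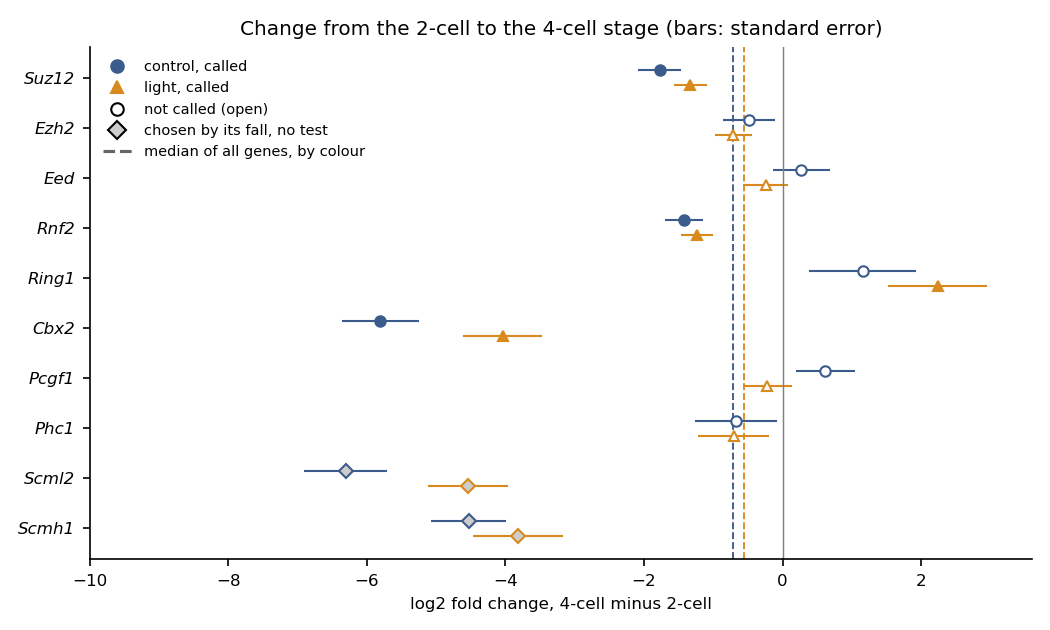
The horizontal axis gives the log2 fold change from the 2-cell to the 4-cell stage with its standard error for the 10 members, with control in blue and light in orange; filled circles and triangles were called by limma, open ones were not, and diamonds mark members chosen for their fall. *Cbx2* (-5.80 and -4.04), *Suz12* (-1.77 and -1.33) and *Rnf2* (-1.43 and -1.24) lie left of the dashed medians of all genes (-0.72 and -0.56).

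The change between the 2 stages was compared between light and control embryos by an interaction term. Limma called 0 of 8 members, beside 3.08% of 20372 genes (1.63% higher, 1.45% lower). *Cbx2* was the 1 member with an unadjusted p under 0.05 (difference 1.76, SE 0.83, limma adjusted p = 0.239), beside 3810 of all genes. DESeq2 called *Cbx2* and edgeR called 0 members. *Suz12* had a difference of 0.44 (SE 0.39) and *Rnf2* of 0.19 (SE 0.34), so no difference between the groups was shown for these falls.

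From the 4-cell to the 8-cell stage limma called 0 of 8 members in control embryos, beside 6.32% of 13410 genes (1.14% higher, 5.18% lower). *Eed* was the 1 member with an unadjusted p under 0.05 (log2 fold change -1.97, SE 0.65, limma adjusted p = 0.0690), beside 2962 of all genes. EdgeR and DESeq2 called 0 members. Limma called *Eed* without control 4-cell library 2 (adjusted p = 0.0483) or control 8-cell library 1 (0.0404), and *Suz12* without control 4-cell library 3 (-1.05, adjusted p = 0.0391). In light embryos *Rnf2* fell from 248 ± 64.4 to 104 ± 32.5 (SD, n = 8 each), a log2 fold change of -1.28 (SE 0.24, limma adjusted p = 0.000647), beside 10.5% of 15163 genes called (0.620% higher, 9.93% lower). The stages did not overlap (2.20% of all genes), with 181 to 369 in 4-cell and 40.9 to 160 in 8-cell embryos. With median ratio scaling *Rnf2* fell by 0.68 (adjusted p = 0.112), and the call was also lost with the other scalings, edgeR and DESeq2. The difference between light and control in this interval was called for 0 of 8 members by limma, beside 3.81% of 16967 genes, with 3 members and 3116 of all genes at an unadjusted p under 0.05. It was largest for *Cbx2* (-3.27, SE 1.09, limma adjusted p = 0.0795), which had a mean of 17.6 in control and 3.83 in light 8-cell embryos. DESeq2 called 2 members, *Cbx2* and *Rnf2*, and edgeR 0, and limma called *Cbx2* without light 4-cell library 11 (adjusted p = 0.0438).

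From the 8-cell stage to the morula *Rnf2* and *Cbx2* fell in control embryos, beside 14.3% of 14948 genes called (6.84% higher, 7.49% lower). *Rnf2* was 117, 123, 188 and 204 in the 8-cell libraries and 4.09, 41.1 and 95.5 (lowest, median, highest) in 13 morulae, a log2 fold change of -2.13 (SE 0.62, limma adjusted p = 0.0199) with no overlap (5.02% of all genes). The call was lost without control 8-cell library 1 (adjusted p = 0.0726) or 4 (adjusted p = 0.0734). *Cbx2* went from 17.6 ± 5.10 (SD, n = 4) to 4.72 ± 8.24 (SD, n = 13), with 0 reads in 6 morulae (log2 fold change -2.79, SE 0.93, limma adjusted p = 0.0438). Its call was lost without any 1 of the 4 control 8-cell libraries, without 9 of the morulae in turn, and in edgeR (adjusted p = 0.308) and DESeq2 (adjusted p = 0.287). *Scml2*, not tested, went from 12.8 ± 10.9 to 0.678 ± 0.6999. *Pcgf1* was 94.4 ± 29.8 and 33.2 ± 25.1 (log2 fold change -1.94, SE 0.71, limma adjusted p = 0.0663), and limma called it without control morula library 26 (adjusted p = 0.0424) or 6 (0.0496), with DESeq2 (0.0255) and under the 3 other scalings. In light embryos *Pcgf1* fell from 78.1 ± 23.8 (SD, n = 8) to 19.9 ± 16.8 (SD, n = 6), with a log2 fold change of -2.26 (SE 0.43, limma adjusted p = 0.000809), beside 11.8% of 14398 genes called (4.60% higher, 7.21% lower); the stages overlapped (3.58% of all genes did not). The interaction was called for 0 of 8 members by limma, edgeR and DESeq2, beside 2.62% of 17410 genes in limma, with 2 members and 2467 of all genes at an unadjusted p under 0.05. Without control 8-cell library 1 limma called *Eed* (-2.48, adjusted p = 0.0383).

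From the morula to the blastocyst *Suz12* fell in both groups. In control embryos it went from 351 ± 112 (SD, n = 13) to 93.9 ± 10.7 (SD, n = 3), with no overlap (log2 fold change -1.83, SE 0.34, limma adjusted p = 0.000571), beside 11.9% of 14955 genes called (6.74% higher, 5.12% lower; 7.88% with no overlap). In light embryos it went from 179 ± 91.1 to 66.4 ± 20.54 (SD, n = 6 each), with overlap (log2 fold change -1.31, SE 0.37, limma adjusted p = 0.00930), beside 20.7% of 13537 genes called (5.01% higher, 15.7% lower; 8.23% with no overlap). *Pcgf1* fell in light embryos from 19.9 ± 16.8 to 3.73 ± 3.54 (log2 fold change -2.09, SE 0.69, limma adjusted p = 0.0279). Both calls in light embryos were lost under the 3 other scalings, in which the median of all genes moved from -0.45 to between -0.08 and 0.07, and in edgeR and DESeq2. The call of *Pcgf1* was also lost without light morula library 5 (adjusted p = 0.0907) or light blastocyst library 15 (0.0620), 24 (0.0666) or 29 (0.0528). *Ezh2* in light embryos was called without light morula library 12 (adjusted p = 0.0403) or 9 (0.0214), and *Pcgf1* in control embryos (all libraries: adjusted p = 0.0540) without control morula library 12 (0.0158), 16 (0.0316) or 23 (0.0475). The interaction was called for 0 of 8 members by limma, edgeR and DESeq2, beside 1.57% of 16836 genes called by limma. At an unadjusted p under 0.05 were 0 members, beside 2842 of all genes.

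In both groups the 5 stages of *Suz12* kept the same order of means, 2-cell, 4-cell, morula, 8-cell and blastocyst. Between neighbours in this order of means, the 4-cell, morula and 8-cell ranges overlapped, while the 2-cell and blastocyst ranges stood apart. In light embryos the morula and 8-cell means were close (179 and 177), and the blastocyst range overlapped that of the morula. *Scml2* and *Scmh1*, chosen for their fall, also had a 2-cell range apart from the next in their order of means in both groups, and all lower neighbours in that order overlapped. In control blastocysts *Scmh1* was 27.1 ± 18.8 (SD, n = 3), its highest mean after the 2-cell stage, and *Scml2* was 0.737 ± 0.272.

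The genes whose pattern over the 67 libraries was most like that of *Scml2*, by Pearson's r of log2(value + 1) among 11219 genes, were *Chsy1* (0.923), *Bcl2l10* (0.923), *Fa2h* (0.919), *Arhgap20os* (0.919) and *Adm2* (0.919). Those most like *Scmh1* were *Tmem117* (0.778), *Tcl1b1* (0.777), *Tbx19* (0.774), *Tbx4* (0.770) and *Itga9* (0.769). *Bcl2l10*, an oocyte survival gene of the BCL2 family, had means of 1705 in control and 201 in light 2-cell embryos and of 13.3 and 12.3 at the 4-cell stage. The r between *Scml2* and *Scmh1* was 0.676. These values describe libraries that share stages and size factors, and a high value at the 2-cell stage alone gives a high r.

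The other Polycomb genes were taken as 4 lists of 53 genes: other PRC2 subunits, other PRC1 subunits, MBT-domain relatives of SCML2, and the deubiquitinase PR-DUB, which removes the mark of PRC1. In light 2-cell embryos 3 of 48 tested were called higher and 10 lower, and in 5 the groups did not overlap, beside 5.53% higher, 4.96% lower and 4.15% with no overlap over all genes. Their median log2 fold change was -0.25, beside 0.00 over all genes. For these genes and those of the lists below, single calls were not followed over the alternatives, as was done for the 10 members. PRC2 subunits gave 2 higher of 11 by limma and none lower, with 7 at an unadjusted p under 0.05, beside 4782 of all 18510 genes. *Rbbp4*, a histone chaperone, rose from 70.9 ± 29.4 to 206 ± 37.2 (log2 fold change 1.64, SE 0.37, limma adjusted p = 0.00373) with no overlap. *Mtf2*, which guides PRC2 to CpG islands, rose from 194 ± 100 to 434 ± 91.0 (log2 fold change 1.32, SE 0.33, limma adjusted p = 0.00884) with overlap.

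PRC1 subunits gave 1 higher and 6 lower of 22 at the 2-cell stage, where 5.53% of all genes were called higher and 4.96% lower. *Phc2*, a paralog of *Phc1*, fell from values of 659 to 1735 in control to 131 to 416 in light embryos (log2 fold change -2.11, SE 0.29, limma adjusted p = 3.69e-05). *Auts2*, a subunit of a variant PRC1, fell from 193 to 446 down to 99.1 to 172 (log2 fold change -1.22, SE 0.30). The light and control groups of both genes were apart. *Cbx8*, a paralog of *Cbx2*, rose from 1.14 ± 2.01 to 16.9 ± 10.6, and *Phc3* fell from 19.8 ± 11.7 to 1.92 ± 3.20, both at low values and with overlap. Of 5 MBT relatives *Sfmbt1* was called lower (log2 fold change -1.13, SE 0.23). Of 10 PR-DUB genes 3 were lower, among them *Foxk2* (511 ± 124 to 189 ± 44.4) and *Mbd6* (192 ± 79.1 to 84.2 ± 25.9), whose groups did not overlap, and *Asxl3* at low values (13.3 ± 12.3 to 1.89 ± 4.63). *Kdm6b*, a demethylase that removes H3K27me3, fell from 567 ± 198 to 191 ± 90.5 (log2 fold change -1.62, SE 0.31, limma adjusted p = 0.000792) with no overlap, while its relative *Kdm6a* did not pass (0.04, SE 0.30). The summed oocyte RNAs fell in the same light libraries, and their part in these counts was not tested.

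**Figure D5:**
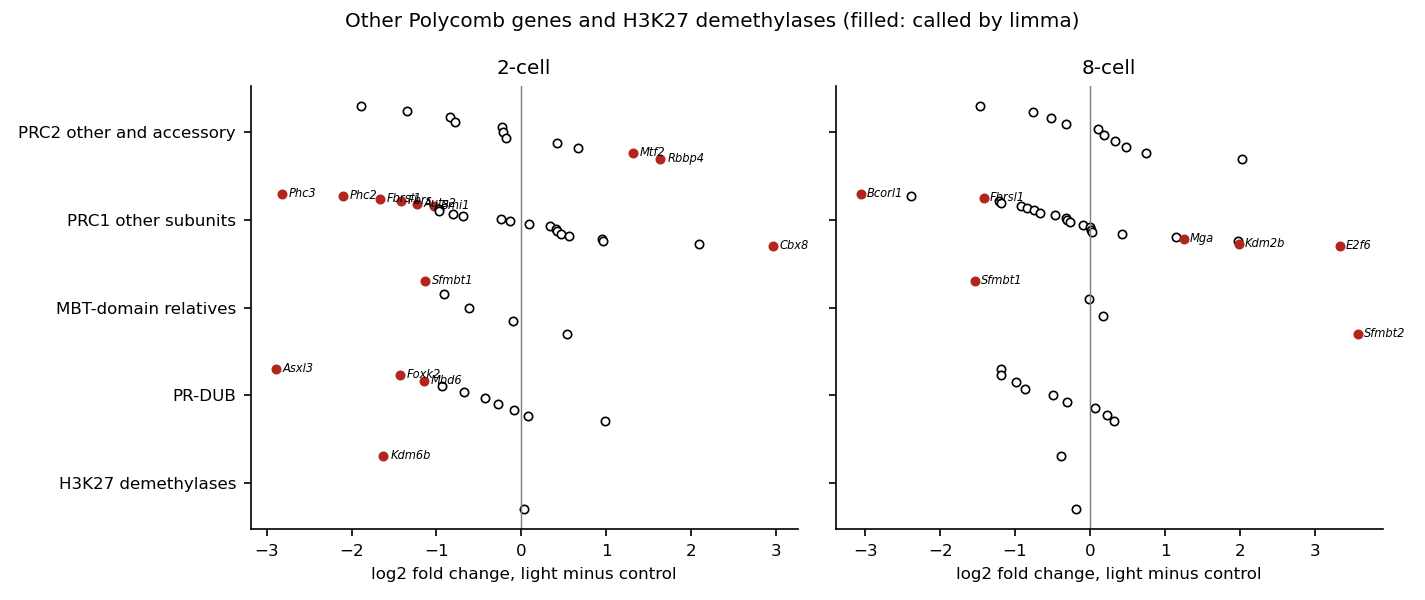
Each point is the log2 fold change of light minus control of 1 gene at the 2-cell (left) and 8-cell stage (right), in rows by list; filled red points with names were called by limma. At the 2-cell stage the calls of PRC1, MBT and PR-DUB genes lie left of 0 apart from *Cbx8*, and the 2 calls of the PRC2 list, *Rbbp4* and *Mtf2*, lie right of it.

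At the 4-cell stage limma called 0 of 46 and in morulae 0 of 49 of these other Polycomb genes, with 7 and 5 at an unadjusted p under 0.05. Over all genes 1.45% and 1.18% were called, and 2624 of 14995 and 2335 of 15201 had an unadjusted p under 0.05. At the 8-cell stage 4 of 46 were higher and 3 lower in light embryos, beside 5.91% and 3.29% of all genes. The higher ones include *Sfmbt2*, an MBT relative whose control values stayed below 1. It passed the filter on low values through light libraries and could only be called higher, so its call is a description. *Kdm2b*, which brings PRC1.1 to CpG islands, went from 4.17 to 68.1 in control up to 71.7 to 167 in light embryos (log2 fold change 1.98, SE 0.49, limma adjusted p = 0.0120) with no overlap. *E2f6*, a DNA-binding subunit of PRC1.6, went from 0 to 2.78 up to 3.80 to 34.2 with no overlap, and *Fbrsl1* from 95.2 to 201 down to 28.9 to 92.5. Over all genes the 8-cell groups did not overlap for 5.61%. *Bcorl1*, a PRC1.1 scaffold, was 76.5 ± 48.0 in control and 11.3 ± 11.7 in light embryos (log2 fold change -3.06, SE 0.81). In blastocysts 1 of 47 was higher and 3 lower in light embryos, beside 0.354% and 4.98% of all genes, so the share of lower calls was near that of all genes. The higher one was again *Sfmbt2*, which passed the filter in the same way, so this count is a description. With median ratio scaling the calls over all genes went from 45 higher and 634 lower to 131 and 149. *Ogt*, a PR-DUB partner that adds sugar to proteins, fell from 338 to 399 in control to 39.4 to 123 in light blastocysts (log2 fold change -2.47, SE 0.40, limma adjusted p = 0.00226), and *Phc3* fell from 33.1 to 52.7 down to 0 to 11.0 (log2 fold change -4.11, SE 0.85). *Hcfc1*, another PR-DUB partner, fell from 586 ± 289 to 211 ± 83.1. The groups of *Ogt* and *Phc3* were apart, as they were for 12.5% of all genes, and those of *Hcfc1* were not. *Ogt*, *Hcfc1* and *Bcorl1* are X-linked. More than 10 Y-linked reads were found in 6 of 6 light and 0 of 3 control blastocyst libraries. At the 8-cell stage they were found in 3 of 8 light and 0 of 4 control libraries. The part of embryo sex in the differences of these X-linked genes was not tested.

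From the 2-cell to the 4-cell stage 27 of 49 other Polycomb genes fell and 3 rose in control embryos, and 22 of 48 fell and 2 rose in light embryos. Over all genes 32.3% were called lower and 13.9% higher in control and 29.0% and 7.44% in light embryos. Their median log2 fold changes were -1.73 and -0.92, beside -0.72 and -0.56 over all genes. *Phc2* had log2 fold changes of -5.80 (SE 0.53) in control and -4.99 (SE 0.54) in light embryos. In the interaction 5 of 50 were higher and 2 lower, beside 1.63% and 1.45% of all genes. *Auts2* had log2 fold changes of -4.25 in control and -1.42 in light embryos (difference 2.83, SE 0.65, limma adjusted p = 0.0158), and *Rbbp4* of 1.40 and -0.53 (difference -1.93, SE 0.52, limma adjusted p = 0.0318).

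Genes controlled by Polycomb marks were described last. Of 39 Hox genes, the classical Polycomb targets, 30 were in the table and 10 passed the filter on low values at the 2-cell stage, and *Hoxa7* was called lower in light embryos (87.1 ± 36.3 to 33.4 ± 25.2, limma adjusted p = 0.0435) with overlap. Over all genes 10.5% were called at the 2-cell stage, 4.96% of them lower in light embryos as a share of all genes tested. The share of Hox genes called, 1 of 10, was thus near that of all genes. At the later stages between 1 and 4 Hox genes were tested, and limma called 0 and found 0 at an unadjusted p under 0.05. Over all genes 1.45% were called in 4-cell embryos, 9.20% in 8-cell embryos, 1.18% in morulae and 5.33% in blastocysts. Of the genes imprinted through maternal H3K27me3 limma called 3 of 5 higher in light 8-cell embryos, 4 of 7 higher in light blastocysts, and 0 of 6 in 2-cell embryos, 0 of 6 in 4-cell embryos and 0 of 7 in morulae, where 3, 0 and 1 had an unadjusted p under 0.05. Over all genes 5.91% were called higher in light 8-cell embryos and 0.354% in light blastocysts. At an unadjusted p under 0.05 were 4782 of 18510 genes in 2-cell embryos, 2624 of 14995 in 4-cell embryos and 2335 of 15201 in morulae. The counts of imprinted genes are a description, since the filter on low values also kept genes that were high in light embryos alone. At the 8-cell stage *Bbx* had values of 0 to 0.532 in control and 7.97 to 145 in light embryos, *Gab1* was listed at 0 in all 4 control libraries and had 1.90 to 71.3 in light ones, and *Sfmbt2* had 0 to 0.417 and 0 to 118. In control 8-cell libraries these 3 genes stayed below 1, so they passed the filter through light libraries and could only be called higher. In control morulae the means were 137 for *Bbx*, 85.8 for *Gab1* and 24.9 for *Sfmbt2*, so the low control values were not found there.

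In blastocysts *Sfmbt2*, itself an MBT-domain Polycomb protein needed in the placenta, had values of 0.348 to 0.642 in control and 34.2 to 154 in light embryos. *Gab1* had 0 to 30.5 and 54.8 to 142, *Slc38a4*, an amino acid transporter, 0 to 1.28 and 8.09 to 60.6, and *Jade1* 0.642 to 8.42 and 12.5 to 69.9. Each of these 4 genes had a control library below 1, and control blastocysts gave 3 libraries. The control libraries alone could therefore not pass any of them through the filter, and their limma calls are a description. The groups did not overlap in any of the 4 (12.5% of all genes). This too is a description, since the 4 genes entered the test through the light libraries where they were high. These genes are expressed from the paternal copy, and the reads of Y-linked genes moved with them: control 8-cell and blastocyst libraries had at most 1 such read, and 3 of 8 light 8-cell and 6 of 6 light blastocyst libraries had more than 10. In control morulae, where these genes were present, the Y-linked reads were at most 1 as well. What part the sex or the number of the embryos had in these differences was not tested.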

How the data were processed

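Single-cell RNA-seq libraries (67, of 33 control and 34 light samples) were grouped by the stage and treatment in the labels. The deposited table holds signal values that the authors made from read counts (HISAT2, HTSeq 0.9.1 and mm9 are named in the submitters' processing notes). The study's methods name RPKM, but the values are whole reads times 1 factor per library, with no division by length. Reads were recovered with a tolerance of 0.01 reads, and 11 genes, none a member, held a value that was not whole. Symbols that a spreadsheet had turned into dates were left out of the tests.

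Values were compared as log2(value + 1) with limma 3.58.1 (R 4.3.3; trended empirical Bayes), in 1 fit per comparison over genes whose value exceeded 1 in 3 or more libraries. EdgeR 4.0.16 and DESeq2 1.42.0 were run on recovered reads. Other alternatives were a pseudocount of 0.1, other filters, 3 other scalings, 1 fit over all libraries, a replicate block and leaving out each library. The fits were tested on simulated counts. Lengths and positions were taken from GENCODE M21 (GRCm38), where 99.68% of symbols were found. Depth was read from the recovered counts. Groups held 3 to 13 libraries, and the share of counting error in their spread was not estimated.

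The members and lists were chosen with earlier results of these data known. Besides the members, genes called between light and control with groups that did not overlap were named, plus up to 2 per list and comparison with the largest change among those called, and the 5 genes most like *Scml2* and *Scmh1* among genes with a mean of at least 10 in some group. Whether libraries of a group came from separate embryos was not tested.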

Additional observations from a re-analysis of the deposited data

Results flagged for a closer look

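Of 80 groups of 4 to 10 libraries examined for the 10 members, 6 held a library far from the others by Dixon's test, which chance gives in about 1 group in 20. Light 8-cell library 5 had a *Rnf2* value of 40.9 (nearest library 96.7), and light morula library 9 had 21.8 (nearest 74.3). *Ring1* was 6.74 in control 2-cell library 8 (nearest 1.04) and 0 in light 4-cell library 14 (nearest 5.62). *Scml2* was 695 in control 2-cell library 12 (nearest 430) and 2.14 in light blastocyst library 23 (nearest 1.05).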

How the results depend on the processing

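Over 4449 values of the 10 members under the alternatives, 55 lost and 42 gained a call, 9 untested values moved by more than the spread between libraries, and no called value changed sign. The other 4343 kept their side of the threshold. In all, 242 values, from 58 results, changed sign, none of them called in either fit (lowest adjusted p 0.389), among them *Suz12* in light against control blastocysts (-0.67 to 0.22). The replicate numbers did not pair the samples (correlations of -0.0871 to 0.0695). With the replicate block the count of members called at the 2-cell stage went from 1 to 0, and it was 0 at the 4-cell and morula stages; 8-cell and blastocyst groups share too few numbers for this fit.

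In light against control, members called at the 4-cell stage went from 0 to 1 with a mean value above 5, 1 fit over all libraries, edgeR or DESeq2. At the 8-cell stage they went from 1 to 0 with no filter or edgeR, and to 2 with a mean value above 5, median ratio scaling or quantile normalization. In morulae they went from 0 to 1 with a mean value above 5 or 1 fit. Leaving out 1 library gave 0 to 1 for 4-cell, 0 to 2 for 8-cell, 0 to 1 for morula and 0 to 1 for blastocyst embryos.

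In control embryos 2-cell to 4-cell went from 3 to 4 with quantile normalization (*Ring1*), and 4-cell to 8-cell went from 0 to 1 with 1 fit (0 to 1 without 1 library). The change from 8-cell to morula went from 2 to 1 with a pseudocount of 0.1, no filter or edgeR, to 3 with the 3 other scalings and to 4 with 1 fit (0 to 3 without 1 library). Morula to blastocyst went from 1 to 2 with quantile normalization, 1 fit or DESeq2 (1 to 2 without 1 library). In light embryos 2-cell to 4-cell went from 4 to 2 with median ratio scaling, scaling to reads outside CT010467.1 and Gm42418, edgeR or DESeq2, and to 3 with quantile normalization. The change from 4-cell to 8-cell went from 1 to 0 with the 3 other scalings, edgeR or DESeq2. Morula to blastocyst went from 2 to 1 with no filter and to 0 with the 3 other scalings, edgeR or DESeq2 (1 to 3 without 1 library). The interaction went from 0 to 1 for 2-cell to 4-cell with DESeq2, and for 4-cell to 8-cell to 1 with median ratio scaling and 2 with DESeq2 (0 to 1 without 1 library, as for 8-cell to morula). The cause was not tested.

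The balance of all genes called also moved with median ratio scaling. It went from 45 higher and 634 lower to 131 and 149 in light against control blastocysts, from 818 and 455 to 641 and 631 at the 8-cell stage, and from 54 and 125 to 138 and 139 in morulae. From 4-cell to 8-cell it went from 153 and 694 to 199 and 72 in control and from 94 and 1505 to 172 and 227 in light embryos, and from morula to blastocyst from 678 and 2128 to 1367 and 834 in light embryos. From 2-cell to 4-cell it went from 1282 and 5003 to 2012 and 4004 in light embryos; with quantile normalization it was 2749 and 2933 there and 4175 and 4044, from 2454 and 5711, in control embryos. From 8-cell to morula it went from 1022 and 1120 to 890 and 1553 in control and from 663 and 1038 to 848 and 883 in light embryos, and from morula to blastocyst from 1008 and 765 to 1549 and 721 in control embryos. *Ring1*, *Scml2* after the 2-cell stage and *Cbx2* in late stages rest on a few reads per library, which limits their fold changes.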

Other observations

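The summed value of 11 genes of the transient 2-cell programme lay between 326 and 1052 in control and between 137 and 2164 in light 2-cell libraries, with medians of 662 and 718. The summed value of 5 primitive endoderm genes lay between 42.4 and 480 in control and between 70.3 and 129 in light blastocysts.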
